A study of Mus musculus with 10 samples.

Results

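The clustered protocadherins are cell-surface adhesion proteins encoded by tandem arrays of genes, the alpha, beta and gamma clusters. Their transcripts were followed here in sorted mouse retinal ganglion cells with and without Satb1. Members were taken by symbol alone, as every entry named Pcdha, Pcdhb or Pcdhg followed by its number or its A, B or C type, which gave 59 of the 23258 gene symbols in the deposited table. These were 15 alpha entries, 22 beta entries and 22 gamma entries, and no measured value entered the choice.

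Each member carries its own promoter in front of a large variable exon that encodes the extracellular cadherin repeats, the membrane span and part of the cytoplasmic tail. Alpha and gamma variable exons are spliced to constant exons shared by all members of the same cluster, whereas beta members have no shared constant exons. A neuron switches on a small, largely random set of the alternate promoters, through DNA methylation, the insulator protein CTCF and the cohesin ring that loops promoters to distant enhancers. The C-type members at the ends of the alpha and gamma clusters are used far more uniformly. The proteins bind their own kind between membranes, and in the retina the gamma cluster is known for self-avoidance of starburst amacrine dendrites and for the survival of interneurons and ganglion cells.

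RNA came from about 1000 green fluorescent ganglion cells per sample, sorted by flow cytometry from retinas of C57BL/6 mice at postnatal day 6, and the cDNA was amplified before sequencing. Cells of both genotypes carried the Hb9-GFP reporter, a transgene known to label ON-OFF direction-selective ganglion cells. There were 5 wild-type libraries (Hb9-GFP) and 5 knockout libraries (Satb1-/- with Hb9-GFP), and the replicates within a genotype came from different litters. Satb1 is a chromatin-organizing DNA-binding protein, and the comparison asks which transcripts differ when it is missing. The labels do not give the Satb1 allele, and the absence of Satb1 is not described as limited to one cell type.

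Values are TPM, the share of a transcript in its library after scaling for transcript length, expressed on a total of 1000000, so levels of different members can be set beside each other. TPM keeps no read depth, so the depth of the libraries is unknown. Between 10073 and 12555 symbols per library reached 1 TPM. Wild-type 5, knockout 4 and knockout 5 stood apart from the other 7 libraries: ribosomal protein genes took 12.1% to 13.6% of their TPM against 3.86% to 8.01%. Satb1 itself was at 304, 189, 414, 132 and 38.6 TPM over wild-type replicates 1 to 5, against 170, 126, 83.1, 34.9 and 24.1 TPM over knockout replicates 1 to 5. The groups overlap, with a log2 difference of -1.25 and an exact two-sided permutation p of 0.135. A value per gene does not show which part of the gene its reads come from, and the allele is not given. It therefore does not check the labels. The summed TPM of 8 ganglion cell markers was 12892 to 23890 in wild-type and 9702 to 98149 in knockout libraries. Pou4f3 was listed at 0 in at least 1 library. Nefl made up 17244 of 22472 TPM in wild-type 1, 6422 of 12892 in wild-type 5 and 94381 of 98149 in knockout 3. In wild-type 5, knockout 4 and knockout 5, Pou4f1 had 37.4, 72.7 and 39.6 TPM, against 194 to 371 TPM elsewhere. Thy1 went the other way, with 1969, 2105 and 1397 TPM there against 705 to 1329 TPM elsewhere. Sums of 6 direction-selective markers, Satb1 among them, were 666 to 1515 TPM over the wild-type replicates, against 140 to 475 TPM over the knockout replicates. Of these, Cartpt alone was at 56.8 to 843 TPM and 1.63 to 47.3 TPM, and without Cartpt and Satb1 the sums overlapped, at 170 to 478 TPM and 68.8 to 303 TPM. In limma, 3 of the 6 were lower at an unadjusted p under 0.05, against 2.57% of all tested genes. At an adjusted p under 0.05 there were 0 of the 6. The 5 starburst amacrine markers summed to 0.176 to 7.56 TPM and 0.397 to 14.9 TPM, and Chat, which defines these cells, was listed at 0 in at least 1 library.

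All annotated members lie on chromosome 18 (GRCm38.p6, the assembly known as mm10, RefSeq gene spans). The alpha cluster spans 36930285 to 37188897, the beta cluster 37264998 to 37521419 and the gamma cluster 37661775 to 37841873. The longest annotated alpha transcripts had 4 exons, and a median of 53.5% of their bases (range 48.6% to 54.9%) also belonged to other members. Gamma transcripts had 3 or 4 exons and shared a median of 44.9% of their bases with other members (range 7.1% to 45.9%). The lowest share was that of Pcdhgc5, whose longest annotated transcript had 3 exons and 410 shared bases. Beta transcripts had 1 exon and shared no bases, except Pcdhb21 and Pcdhb22, which overlap by 455 bases. The sources used here do not tell how reads in the shared constant exons were divided among alpha or gamma members. Single alpha and gamma levels carry that uncertainty, and beta levels, outside that overlap, do not. The shares are of annotated bases in 1 transcript per member, with exons found for 13 of the 15 alpha entries. They do not give the share of reads concerned.

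The 59 members together made up 305 to 1681 TPM of a library. Their sums were 1571, 1681, 1138, 1015 and 305 TPM over wild-type replicates 1 to 5, against 1210, 976, 1046, 440 and 516 TPM over knockout replicates 1 to 5. The 3 libraries that stood apart held the 3 lowest sums. In bulk samples of this kind, fewer cells with a transcript and less transcript per cell cannot be told apart. At 1 TPM or more, 57, 57, 49, 48 and 48 members were present in wild-type 1 to 5, and 55, 53, 52, 49 and 28 in knockout 1 to 5. Knockout 5 was far below every other library in this count, and it listed 9 members at 0, against 1 to 4 in the others. An exact 0 in such a table can be a failed estimate.

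**Figure D1:**
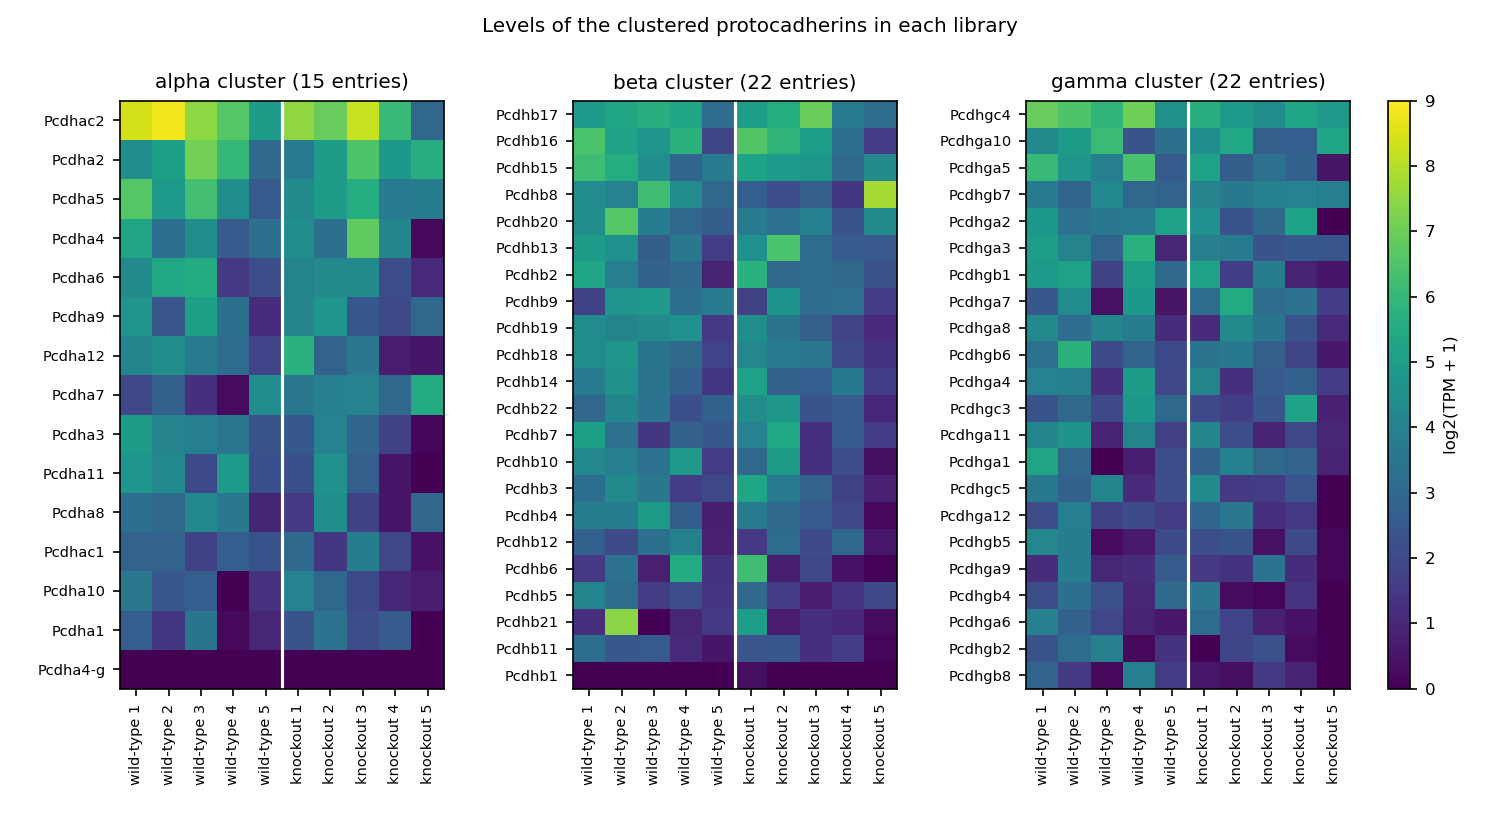
Level of each of the 59 members (rows, ordered by mean level within each cluster) in each of the 10 libraries (columns), colored by log2(TPM + 1), with the white line between wild-type and knockout. Pcdhac2 leads the alpha rows in 9 of 10 columns, and the knockout 5 column is dark for most rows, with 28 members at 1 TPM or more.

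Across the 10 libraries, 22 members reached 1 TPM in every one: 5 alpha, 12 beta and 5 gamma members. At the other end, Pcdha4-g and Pcdhb1 never reached 1 TPM. Pcdhb1 was at 0.276 TPM in knockout 1 and listed at 0 in the other 9 libraries. The remaining 57 members passed the filter of at least 1 TPM in at least 5 libraries and were tested.

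The alpha cluster summed to 645, 639, 556, 260 and 94.1 TPM over wild-type replicates 1 to 5, against 364, 331, 634, 150 and 129 TPM over knockout replicates 1 to 5. Knockout 3 lay level with the highest wild-type libraries, and the groups overlapped over most of their range. The C-type gene Pcdhac2, needed for the even spacing of serotonergic axons, dominated. Pcdhac2 was at 339, 444, 176, 96.9 and 30.8 TPM over wild-type replicates 1 to 5, against 182, 120, 304, 68.0 and 7.07 TPM over knockout replicates 1 to 5. It was the highest alpha member in 9 libraries, with 31.6% to 69.4% of the alpha sum in them, and the highest of all 59 members in 7. In knockout 5 it ranked below Pcdha2, which made up 37.2% of the alpha sum, Pcdha7 with 34.1%, Pcdha5 with 10.1% and Pcdha9 with 5.66%, and its own share was 5.48%. The other alpha C-type gene, Pcdhac1, stayed low, at 2.35 to 6.18 TPM over the wild-type replicates, against 0.370 to 12.7 TPM over the knockout replicates.

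Among the 12 alternate alpha members, which encode the randomly chosen variants, Pcdha2, Pcdha5, Pcdha4 and Pcdha6 had the highest means of log2(TPM + 1). Pcdha2 was at 20.9, 34.1, 137, 63.4 and 7.67 TPM over wild-type replicates 1 to 5, against 11.6, 30.7, 91.6, 26.9 and 48.1 TPM over knockout replicates 1 to 5. Pcdha5 was at 98.9, 28.6, 77.6, 20.7 and 4.83 TPM over the wild-type replicates, against 18.7, 30.6, 46.2, 11.996 and 13.05 TPM over the knockout replicates, in the same order. Both varied more than 10-fold between libraries of the wild-type group, with the lowest value in wild-type 5, a library that stood apart. Pcdha4 reached 109 TPM in knockout 3 and 0.133 TPM in knockout 5, with 5.03 to 37.2 TPM in wild-type libraries. Pcdha6 ran from 1.80 to 45.4 TPM over the wild-type replicates, against 1.09 to 18.5 TPM over the knockout replicates. Each of these alternate members was thus high in some libraries and low in others of the same genotype. This was not particular to alternate members. The within-genotype SD of log2(TPM + 1) was 1.80 for the C-type Pcdhac2. For Pcdha2, Pcdha5, Pcdha4 and Pcdha6 it was 1.31, 1.29, 1.84 and 1.67.

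The beta cluster summed to 460, 625, 337, 298 and 78.8 TPM over wild-type replicates 1 to 5, against 543, 424, 276, 103 and 292 TPM over knockout replicates 1 to 5. No member led it throughout, and 6 different members were the highest in at least 1 library. Pcdhb16 was highest in 3 libraries, Pcdhb17 and Pcdhb8 in 2 each, and Pcdhb13, Pcdhb15 and Pcdhb21 in 1 each. Pcdhb17, the beta member with the highest mean log2(TPM + 1), was at 27.4, 39.0, 49.0, 37.7 and 8.31 TPM over wild-type replicates 1 to 5, against 32.4, 46.1, 125, 11.9 and 8.27 TPM over knockout replicates 1 to 5. The knockout values enclosed those of the wild-type libraries. Pcdhb16 was at 86.0, 35.4, 25.2, 53.6 and 2.71 TPM over the wild-type replicates, against 93.5, 60.4, 31.9, 8.75 and 2.12 TPM over the knockout replicates, with the lowest value of each genotype in replicate 5.

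Single libraries set the levels of several other beta members. Pcdhb8 was at 19.1, 14.8, 73.8, 19.4 and 6.95 TPM over the wild-type replicates, against 5.45, 3.504, 5.67, 1.69 and 221 TPM over the knockout replicates. The knockout 5 value alone was 75.8% of the beta sum and 42.9% of the sum of all members in that library. Pcdhb21, singled out after its values were seen, reached 171 TPM in wild-type 2, had 31.5 TPM in knockout 1, was listed at 0 in wild-type 3, and was between 0.202 and 1.85 TPM in the other 7 libraries. Pcdhb6, likewise, was at 75.1 TPM in knockout 1 and 45.0 TPM in wild-type 4 but between 0.0752 and 9.22 TPM elsewhere. Pcdhb20 peaked at 96.7 TPM in wild-type 2, with a range of 4.11 to 20.6 TPM in the rest. Pcdhb15 had no such peak and ran from 6.57 to 73.4 TPM over the wild-type replicates, against 7.73 to 36.3 TPM over the knockout replicates.

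The gamma cluster summed to 466, 416, 245, 457 and 132 TPM over wild-type replicates 1 to 5, against 303, 221, 136, 187 and 95.04 TPM over knockout replicates 1 to 5. The mean was 343 ± 148 TPM for the wild-type replicates and 188 ± 80.0 TPM for the knockout replicates (SD, n = 5 each), and the groups overlapped through wild-type 3 and wild-type 5. Its leader was the C-type gene Pcdhgc4, the isoform known to be needed for neuronal survival. Pcdhgc4 was at 120, 91.0, 58.9, 127 and 23.5 TPM over wild-type replicates 1 to 5, against 49.5, 27.3, 20.3, 38.7 and 28.1 TPM over knockout replicates 1 to 5. All wild-type libraries but wild-type 5 were above every knockout library. Pcdhgc4 was the highest gamma member in 6 libraries, and Pcdhga10 in 2, Pcdhga2 in 1 and Pcdhga7 in 1. The other gamma C-type genes were lower: Pcdhgc3, which promotes dendrite branching, was at 2.99 to 26.9 TPM over the wild-type replicates, against 0.755 to 35.7 TPM over the knockout replicates. Pcdhgc5 was at 1.15 to 15.6 TPM in wild-type libraries, and in knockout libraries it ran from 1.81 to 18.8 TPM in 4 libraries and was listed at 0 in knockout 5.

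The 12 gamma A members summed to 67.0 to 251 TPM over the wild-type replicates, against 51.2 to 158 TPM over the knockout replicates, and the 7 gamma B members to 31.1 to 126 TPM and 14.9 to 75.9 TPM. Pcdhga5 was at 65.2, 25.0, 13.7, 83.5 and 4.83 TPM over wild-type replicates 1 to 5, against 35.3, 5.24, 9.21, 5.94 and 0.406 TPM over knockout replicates 1 to 5. Pcdhga10 was at 18.5, 30.1, 69.7, 4.09 and 8.90 TPM over the wild-type replicates, against 20.8, 40.2, 5.68, 5.52 and 39.3 TPM over the knockout replicates. Neither gene separated the genotypes. Pcdhga2 ran from 9.48 to 34.8 TPM in wild-type libraries, and in knockout libraries it was at 3.88 to 36.6 TPM in 4 libraries and listed at 0 in knockout 5. By contrast with these, Pcdhgb7 was steady, at 11.8, 6.44, 17.4, 7.26 and 6.32 TPM over the wild-type replicates, against 15.4, 11.3, 14.6, 14.7 and 13.9 TPM over the knockout replicates.

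**Figure D2:**
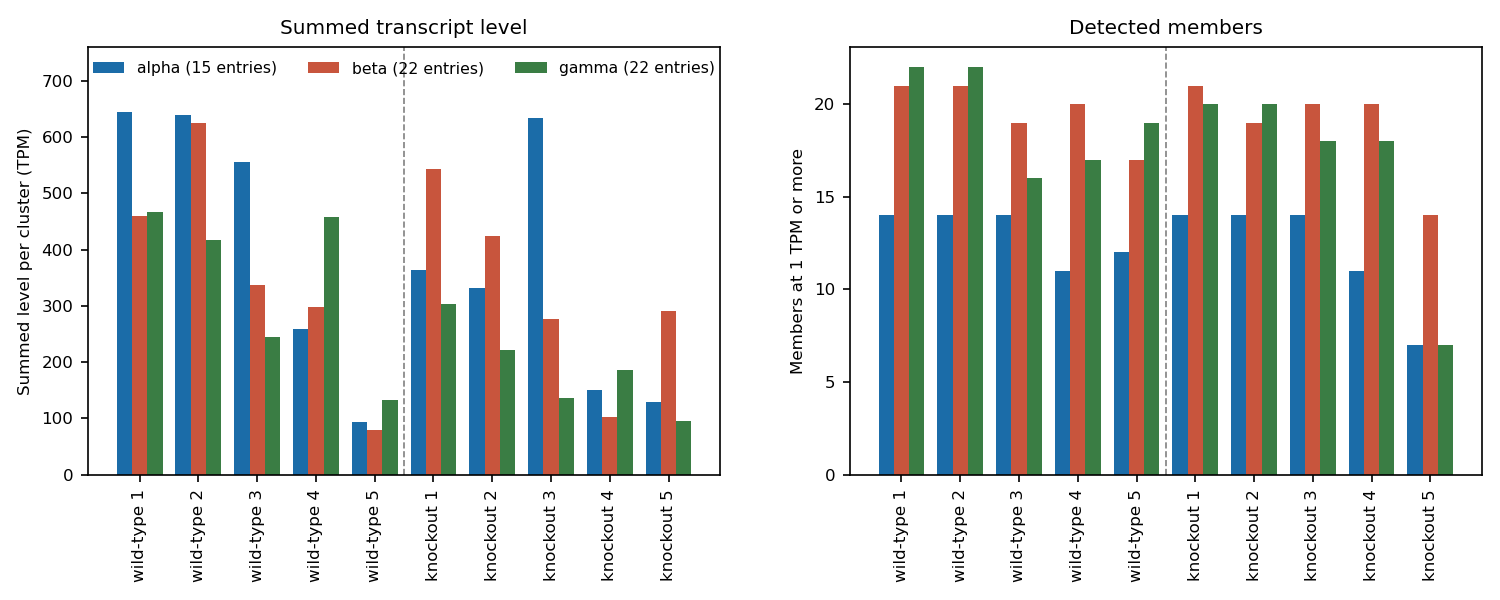
Left, summed TPM of each cluster in each library, with alpha in blue, beta in red and gamma in green; right, number of members at 1 TPM or more in the same libraries, and the dashed line parts wild-type from knockout. Sums of all clusters are low in wild-type 5 (94.1, 78.8 and 132 TPM), and knockout 5 has the fewest detected members.

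The evenness of use was expressed per library as the effective number of members, the exponential of the Shannon entropy of their shares, which equals the number of members if all were used alike. In the alpha cluster it was 3.69 to 8.10 in wild-type and 4.75 to 8.90 in knockout libraries, out of 15 entries. In the beta cluster it was 12.8 to 14.6 in wild-type libraries. In knockout libraries it was 14.7, 12.8, 8.09, 16.7 and 2.97 in the order 1 to 5, so that knockout 3 and knockout 5 lay below every wild-type library and knockout 1 and knockout 4 above. In the gamma cluster it was 9.13 to 14.97 in wild-type libraries and 10.8 to 15.6 in knockout libraries 1 to 4, against 4.88 in knockout 5. The effective number depends on the number of entries, 15 for alpha and 22 for beta and for gamma, so it was not compared between clusters. The lowest beta and gamma numbers were both those of knockout 5.

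**Figure D3:**
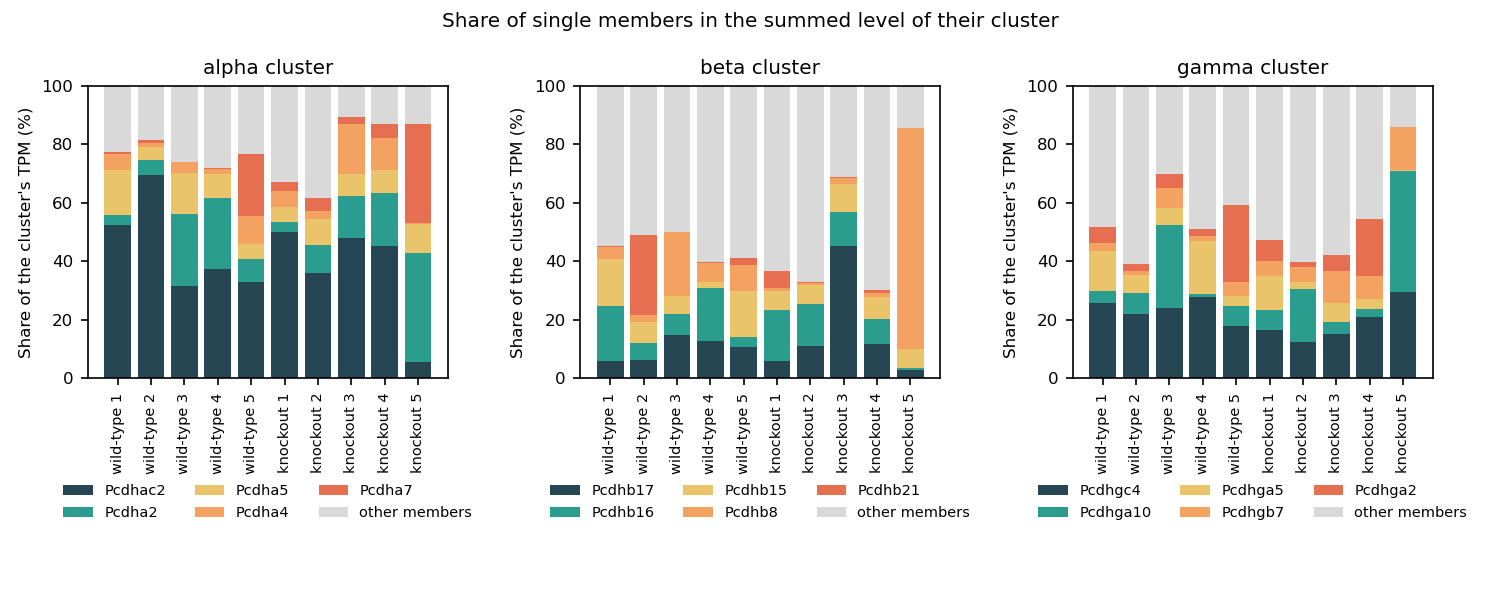
Share of 5 named members and of all other members (grey) in the summed TPM of their cluster, in percent, 1 bar per library. Pcdhac2 holds 31.6% to 69.4% of the alpha sum in 9 libraries, and Pcdhb8 holds 75.8% of the beta sum in knockout 5.

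The ranking of members was similar in the genotype means. The Spearman correlation between the wild-type and knockout mean levels was 0.75 over the 15 alpha entries, 0.82 over the 22 beta entries and 0.80 over the 22 gamma entries. Between single libraries the agreement was lower: the median over library pairs within the wild-type group was 0.66 for alpha, 0.40 for beta and 0.24 for gamma, and within the knockout group 0.55, 0.50 and 0.47. Pairs across genotypes had medians of 0.56, 0.48 and 0.41. These values are across genes of the same libraries, which are not independent replicates, and alpha and gamma members share exons. Pcdha4-g and Pcdhb1, which never reached 1 TPM, ranked lowest in their clusters in both genotype means. That raises the alpha and beta correlations, and the gamma cluster holds no such entry. Position along the cluster went weakly with level. Spearman correlations were -0.22 over the 12 alternate alpha members, 0.37 over the 22 beta members and -0.19 over the 19 gamma A and B members. The beta value includes Pcdhb1, first in position and lowest in level.

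Spread between replicates was wide for most members. The SD of log2(TPM + 1) within a genotype had a median of 1.38 over the 57 tested members and 1.20 over all 11744 tested genes, and 47 of the 57 members lay above the latter. The members' mean level was also lower, with a median of 2.99 on that log2 scale against 3.85. For 26 of the 57 members the highest library was over 5 times their median, against 34.2% of all tested genes. These 26 were 3 alpha, 9 beta and 14 gamma members. The widest spreads were those of Pcdhb21 (2.50), Pcdhb6 (2.26) and Pcdhb8 (1.97), and the narrowest among the tested members those of Pcdhgb7 (0.43) and Pcdhgc4 (0.77). Pcdhac2, although the most abundant, had a spread of 1.80.

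**Figure D4:**
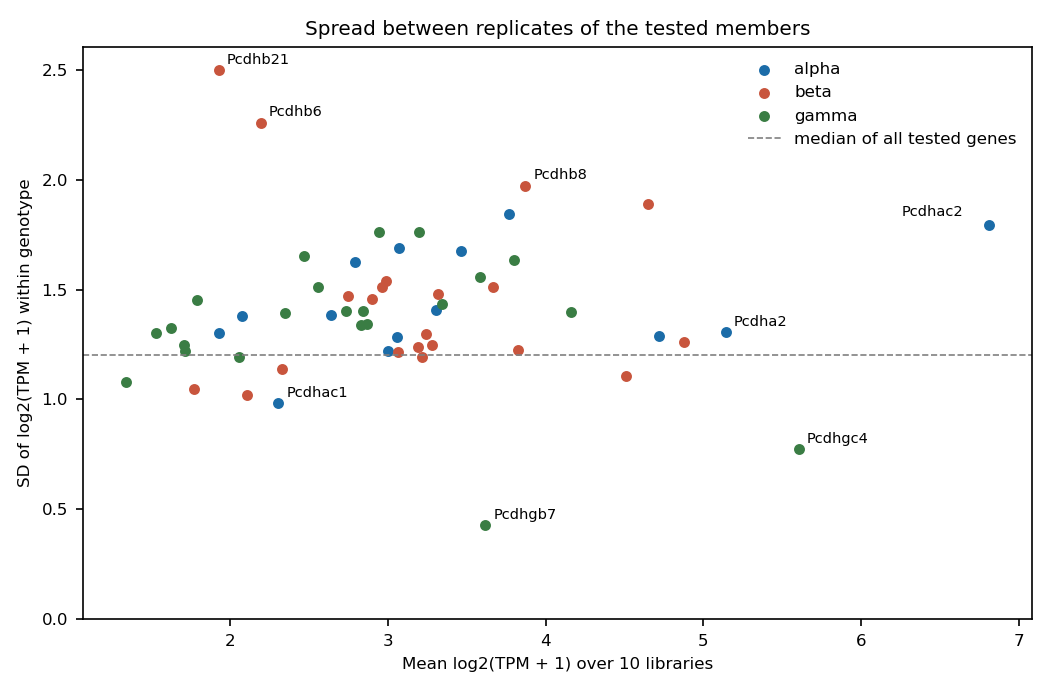
Mean log2(TPM + 1) over 10 libraries (horizontal axis) against the SD of log2(TPM + 1) within a genotype (vertical axis) for the 57 tested members, 1 point each, with the dashed line at the median of all tested genes (1.20). Most points lie above the line, and Pcdhgb7 (0.43) and Pcdhgc4 (0.77) lie lowest.

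No member passed the test for a genotype difference. limma on log2(TPM + 1), with Benjamini-Hochberg adjustment over the 11744 tested genes, called 0 of the 57 members at an adjusted p under 0.05 and 0 genes in all, a background of 0%. The smallest adjusted p of a member was 0.992. At an unadjusted p under 0.05 there was 1 member of 57, in the higher direction, against a background of 3.31% in either direction, 2.57% in the lower and 0.741% in the higher one. In 0 of the 57 members did the 5 wild-type and 5 knockout libraries not overlap, against 0.502% of all tested genes (0.426% lower and 0.0766% higher in knockout libraries). The 95% interval of the difference included 0 for 56 of the 57 members, and the median standard error was 0.85 on the log2 scale. A p that misses the threshold does not show that levels were alike. Since replicates within a genotype came from different litters, the p-values measure the spread between those samples.

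Members nonetheless lay lower in knockout libraries more often than higher. The log2 difference was below 0 for 48 of the 57 members (84.2%): 11 of 14 alpha, 18 of 21 beta and 19 of 22 gamma members. Over all tested genes the share was 67.4%, and 32.6% lay above 0. The median difference was -0.59 over the 57 members, with -0.41 for alpha, -0.52 for beta and -0.77 for gamma, against -0.31 over all tested genes. Differences below -1 were found for 13 of the 57 members, 22.8%, against 13.5% of all tested genes, and 8 of these 13 were gamma members. A difference above 1 was found for 1 member, against 5.12% of all tested genes. Centring each library on its median brings the median difference of all genes near 0 by construction, so it cannot test the general shift. It only places the members beside all genes. With this centring, 37 of 57 members were lower, with a median of -0.21. Of all 11744 genes, 5410 were lower, with a median of 0.07. By cluster the lower members then numbered 7 of 14 alpha, 12 of 21 beta and 18 of 22 gamma. With quantile normalization 38 of 57 were lower. Without wild-type 5, knockout 4 and knockout 5, 32 of 53 tested members were lower, with a median of -0.26, and 6818 of all 10920 tested genes were, with a median of -0.22. Leaving out knockout 5 alone brought the members' median to -0.24, and leaving out wild-type 5 alone brought it to -0.91.

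Members were also low in the 3 libraries that stood apart, whatever the genotype. The mean of these libraries was lower than that of the other 7 libraries for 54 of the 57 members, with a median log2 difference of -1.45, while over all tested genes 70.8% were lower with a median of -0.84. By cluster the median was -1.76 for alpha, -1.43 for beta and -1.13 for gamma. Since 2 of these 3 libraries are knockout and 1 is wild-type, their part in the genotype differences was described by leaving them out, as above, and no cause of their low values was tested.

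**Figure D5:**
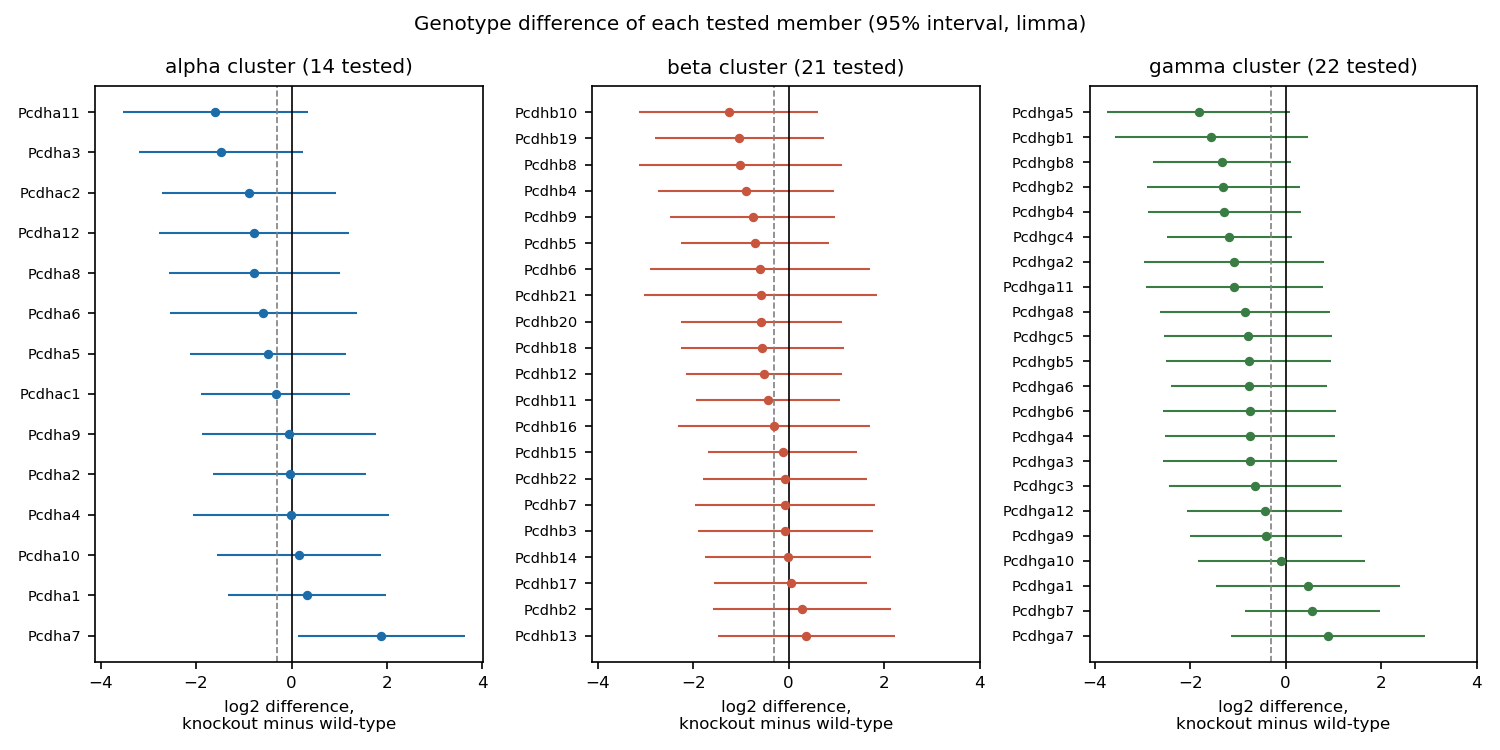
Log2 difference between knockout and wild-type means of log2(TPM + 1) for each tested member (points) with the 95% interval from limma (bars), by cluster; the solid line marks 0 and the dashed line the median of all tested genes (-0.31). All intervals but that of Pcdha7 include 0, and most points lie left of 0.

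In the alpha cluster the smallest p belonged to Pcdha7, an alternate member. It was at 2.77, 5.80, 1.38, 0.192 and 20.1 TPM over wild-type replicates 1 to 5, against 10.7, 14.2, 14.8, 7.27 and 44.01 TPM over knockout replicates 1 to 5. Each genotype had its highest value in replicate 5, and every knockout value exceeded those of wild-type 1 to 4. The log2 difference was 1.88 (SE 0.84, 95% interval 0.13 to 3.64), with an unadjusted p of 0.0368 and a Benjamini-Hochberg adjusted p of 0.992 from limma. Without wild-type 5 it was 2.45, and without knockout 5 it was 1.51 with an unadjusted limma p of 0.0923. The unadjusted p also missed 0.05 without wild-type 1, 3 or 4 or without knockout 2 or 3. Pcdha1 was the other alpha member named as higher, with a difference of 0.32, and this changed sign without wild-type 4 or without knockout 2.

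The alpha members with the smallest p on the lower side were Pcdha3 and Pcdha11. Pcdha3 was at 30.0, 15.2, 13.7, 10.6 and 3.98 TPM over the wild-type replicates, against 4.59, 14.9, 6.58, 2.44 and 0.0910 TPM over the knockout replicates, a log2 difference of -1.48 (SE 0.82). Pcdha11 was at 25.8, 17.2, 3.04, 27.4 and 3.55 TPM over the wild-type replicates, against 3.60, 22.6, 5.65 and 0.410 TPM over knockout 1 to 4, and was close to 0 in knockout 5. Its log2 difference was -1.59 (SE 0.93). The groups overlapped in both genes. For Pcdhac2 the difference was -0.89 (95% interval -2.72 to 0.93), which went to -0.06 without knockout 5 and to -1.46 without wild-type 5. Pcdhac1, Pcdha2, Pcdha4, Pcdha5 and Pcdha6 had differences of -0.33, -0.04, -0.01, -0.49 and -0.59, and all but that of Pcdha5 changed sign under at least 1 alternative.

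In the beta cluster the lower side was led by Pcdhb10 and Pcdhb19. Pcdhb10 was at 17.2, 14.0, 9.28, 28.4 and 2.04 TPM over the wild-type replicates, against 7.19, 28.9, 1.37, 3.36 and 0.303 TPM over the knockout replicates, a log2 difference of -1.25 (SE 0.90). Pcdhb19 was at 19.4, 15.7, 19.0, 22.6 and 1.81 TPM over the wild-type replicates, against 21.4, 10.02, 5.53, 2.64 and 1.18 TPM over the knockout replicates, a difference of -1.03 (SE 0.84). Wild-type 5 lay far below the other wild-type libraries in Pcdhb19, and knockout 1 lay among them. On the higher side Pcdhb13 had a difference of 0.37 and Pcdhb2 of 0.28, each of them negative in some alternatives. Pcdhb8 had a difference of -1.01 (SE 1.02) despite its peak in knockout 5, and of -2.19 without the 3 libraries apart. Pcdhb17, Pcdhb16, Pcdhb15 and Pcdhb20 had differences of 0.04, -0.31, -0.12 and -0.57, and each of these changed sign under some alternatives.

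In the gamma cluster Pcdhga5, Pcdhgb8 and Pcdhgc4 had the smallest p, all on the lower side. The log2 difference of Pcdhga5 was -1.82 (SE 0.92, 95% interval -3.74 to 0.10), with an unadjusted limma p of 0.0616, and it was -1.22 without knockout 5. Pcdhgb8 was at 6.37, 1.81, 0.137, 13.7 and 2.03 TPM over the wild-type replicates, against 0.5001, 0.301, 1.88 and 0.841 TPM over knockout 1 to 4, and was listed at 0 in knockout 5, a fitted difference of -1.33 (SE 0.70). Pcdhgc4 had a difference of -1.18 (SE 0.63, 95% interval -2.48 to 0.13) and an unadjusted limma p of 0.0746. In all 22 alternatives tried for Pcdhgc4 the difference stayed between -1.62, without the 3 libraries apart, and -0.80, with median centring, and the lowest Benjamini-Hochberg adjusted p of limma over them was 0.645. The gamma sum was likewise lower, with a log2 ratio of the genotype means of -0.87 and of -0.85 without the 3 libraries apart. For alpha this ratio was -0.45 and for beta -0.13. The log2 sums of single libraries had a pooled within-genotype SD of 0.72 for gamma, 1.08 for alpha and 1.04 for beta, with the 3 libraries apart included, and no test of the sums was made.

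On the higher side of the gamma cluster were Pcdhga7 and Pcdhgb7. Pcdhga7 was at 4.45, 19.4, 0.331, 26.9 and 0.397 TPM over the wild-type replicates, against 8.03, 44.4, 8.40, 9.51 and 2.09 TPM over the knockout replicates, a log2 difference of 0.89 (SE 0.97). Pcdhgb7 had a difference of 0.56 (95% interval -0.85 to 1.97), and 4 of its 5 knockout values exceeded 4 of its 5 wild-type values, wild-type 3 being the highest of all. Pcdhgc3 and Pcdhgc5 had differences of -0.64 and -0.79, Pcdhga2 of -1.09 and Pcdhga10 of -0.09. The remaining tested members of the clusters lay between -1.56 (Pcdhgb1) and 0.47 (Pcdhga1).

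Regulators of promoter choice and chromatin at the clusters were followed through 19 tested genes of a list of 22, and 0 passed the limma test. Satb1, the knocked-out gene, was itself on this list, with a log2 difference of -1.25 and the smallest limma p in it. Of the 19 genes, Satb1 included, 15 had a difference below 0 and 4 above, with a median of -0.39. Over all tested genes 67.4% were below 0, with a median of -0.31. Ctcf, the insulator protein whose sites flank the promoters and enhancers, was at 44.7, 39.2, 44.9, 55.4 and 8.84 TPM over the wild-type replicates, against 23.8, 30.7, 15.3, 16.1 and 4.13 TPM over the knockout replicates. All wild-type libraries but wild-type 5 lay above all knockout libraries, and the log2 difference was -1.08 (SE 0.72, Benjamini-Hochberg adjusted limma p of 0.992). Rad21, a cohesin subunit, had a difference of 0.49 (SE 0.73). Dnmt1, the maintenance DNA methyltransferase, and Ehmt2, a histone H3 lysine methyltransferase, had differences of 0.56 and 0.58.

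Among proteins that bind clustered protocadherins or act downstream of them, 0 of 21 tested genes of a list of 23 passed, with 15 below 0 and a median of -0.22. Over all tested genes 67.4% were below 0, with a median of -0.31. The smallest p on the lower side were those of Nlgn2, a postsynaptic adhesion protein, and Ptk2, the focal adhesion kinase that the cytoplasmic constant tails inhibit. Nlgn2 had a difference of -1.08 (SE 0.66) and Ptk2 of -1.27 (SE 0.78). On the higher side were Ret, a receptor tyrosine kinase that partners protocadherins, with 0.60, and Wasf1, a subunit of the actin-regulating WAVE complex, with 0.32.

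The non-clustered delta protocadherins, single genes outside the arrays, gave a comparison within the wider family. Of 9 tested delta genes, 0 passed and 8 had a difference below 0, with a median of -0.79 beside -0.31 and a share of 67.4% below 0 over all tested genes. Their median mean level was 5.86 on the log2(TPM + 1) scale against 2.99 for the clustered members. Pcdh10, an adhesion protein of the delta group, was at 631, 205, 252, 118 and 38.1 TPM over the wild-type replicates, against 177, 116, 65.9, 40.7 and 16.2 TPM over the knockout replicates, a difference of -1.45 (SE 0.75). Pcdh1 had a difference of -0.98 (SE 0.55), and Pcdh9 of 0.27 (SE 0.77). Like the clustered members, all 9 delta genes were lower in the 3 libraries apart, by a median log2 difference of -2.09.

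Markers of other retinal cells varied between the libraries in which the members were measured. Summed TPM of 8 rod markers ran from 3.89 to 461 in wild-type and from 1.13 to 455 in knockout libraries, of 6 microglia markers from 0.779 to 1225 and from 59.1 to 2179, and of 5 Muller glia markers from 99.9 to 414 and from 78.8 to 5713. Microglia sums were 1873 TPM in knockout 2 and 1568 TPM in knockout 3, libraries with 53 and 52 members at 1 TPM or more. In wild-type 4 the sum was 1225 TPM, with 48 such members. The highest microglia and Muller glia sums were in knockout 5, the library with the fewest detected protocadherins. Apoe, which microglia also express, made up 5651 of the 5713 TPM of that Muller glia sum. Without Apoe the sum in knockout 5 was 61.5 TPM, inside the range of 28.8 to 189 TPM over the wild-type replicates. All of this remainder was Glul, and Slc1a3 was listed at 0 in knockout 5. The 6 markers of other amacrine cells summed to 7.84 to 21.3 TPM and 0.421 to 16.2 TPM. Of the defining markers, Nrl (rod), Gad1 (amacrine), Rlbp1 (Muller glia) and C1qa (microglia) were each listed at 0 in at least 1 library. The part of these cells in the protocadherin levels was not tested.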

How the data were processed

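The authors deposited 1 table of log10(TPM + 1) values for 23746 lines in 10 libraries; the log base and offset were read from the values, since every library then sums to 1000000 TPM. The submitters' processing notes name TopHat2 2.0.10, Cufflinks and mm10. The annotation, with any filter or strand setting, was not given in the sources used here, and depth per library is unknown. Here, 26 lines with a number as symbol were left out, and TPM of 240 symbols on several lines were summed (each member stood on 1 line). Then log2(TPM + 1) of the 11744 symbols at 1 TPM or more in 5 or more libraries was fitted with limma 3.58.1 in R 4.3.3. The model held genotype only, with a mean-variance trend and a Benjamini-Hochberg threshold of 0.05. The fit was also run on simulated data with independent noise per gene and changes only in genes of higher level. Such data lack the differences between libraries that many genes share here, so they do not check the fit in that respect. Fold changes on this scale understate those of low genes. Gene spans came from RefSeq, exons from GENCODE M21.

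Members and lists were chosen with earlier results of these data known. Named were, per cluster, the 5 highest members, the 2 smallest p per direction and all C-type members, and, per other list, the 2 smallest p per direction plus Ctcf, Rad21 and Satb1. A two-sided exact permutation test was used for Satb1. Alternatives covered the pseudocount, filter, scaling, replicate block, library weights, variance model, duplicate lines and libraries left out. No label states that the replicate numbers pair the libraries, so the main fit used no pairing. Sequences are not shown, and 1 marker list is not reported here.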

Additional observations from a re-analysis of the deposited data

Results flagged for a closer look

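In 88 groups of 5 libraries, the named genes and the cluster measures were screened for a library far from the others. Its gap to its nearest neighbour had to exceed 0.71 of the group's range (Dixon's 95% limit). Genes were screened on the log2(TPM + 1) scale, cluster sums as log2 TPM and the number of members as a plain count. For normally distributed values, chance passes this limit in about 1 of 20 groups. There were 7 such groups. Among the members, Pcdhb8 was at 221 TPM in knockout 5 against 1.69 to 5.67 TPM in the other knockout libraries, and Pcdhb2 was at 52.5 TPM in knockout 1 against 3.69 to 8.32 TPM. Pcdhb19 was at 1.81 TPM in wild-type 5 against 15.7 to 22.6 TPM in the other wild-type libraries. The number of members at 1 TPM or more was 28 in knockout 5 against 49 to 55 in the other knockout libraries. Among the genes of the other lists, Ctcf was at 8.84 TPM in wild-type 5 against 39.2 to 55.4 TPM, Ehmt2 was at 30.1 TPM in wild-type 5 against 14.6 to 17.9 TPM, and Ptk2 was at 30.0 TPM in wild-type 4 against 10.03 to 13.9 TPM in the other wild-type libraries.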

How the results depend on the processing

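In every alternative run, limma called 0 of the tested members, and the lowest adjusted p of a named gene was 0.645. The number of members at an unadjusted p under 0.05, 1 as reported, was 2 with no filter, 5 with the replicate block, 4 with library weights, 3 without the 3 libraries apart, and 0 to 4 with 1 library left out (4 without wild-type 5 or without knockout 1). All tested genes at that level numbered 389, and 830 with the block, 834 with library weights and 267 to 830 with 1 library left out (830 without wild-type 5); adjusted calls over all genes were 0 to 3. The block was only an alternative, since no label states a pairing. Deviations of same-numbered libraries correlated at 0.22, 0.07, 0.13, -0.03 and 0.36. Libraries of unlike numbers were not set beside them, so these values do not settle whether the numbers pair the libraries. The cluster medians stayed below 0 in all alternatives: alpha -0.80 to -0.04, beta -0.79 to -0.10, gamma -1.06 to -0.40. The log2 ratio of beta sums turned positive without wild-type 2 (0.16) or without knockout 4 (0.09). The difference in detected members, -4.4 on average, was 0.58 without the 3 libraries apart and 0.45 without knockout 5. The Satb1 difference ran from -1.77 to -0.88 with 1 library left out, and its exact permutation p was 0.0397 without wild-type 5.

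Of 40 named genes, 26 kept their direction in all alternatives, and 50 of 870 values had the other sign. Many of the 40 were named for a small p in these same data, which favours a stable sign. The counts therefore do not show how stable unselected members are. The cause of the sign changes was not tested. With median centring the sign turned for Pcdha2 (0.33), Pcdha4 (0.37), Pcdhac1 (0.043), Pcdhb15 (0.25), Pcdhb16 (0.069) and Pcdhga10 (0.28), and with quantile normalization for Pcdha2 (0.24), Pcdha4 (0.28), Pcdhb15 (0.13), Pcdhb16 (0.12) and Pcdhga10 (0.12). With library weights it turned for Pcdha2 (0.0090), Pcdha4 (0.55) and Pcdhb2 (-0.20), and without the 3 libraries apart for Pcdha4 (0.94), Pcdha6 (0.039), Pcdhac1 (0.24), Pcdhb15 (0.18) and Pcdhb16 (0.32). With 1 library left out, the difference ran from -0.17 to 0.75 for Pcdh9, -0.071 to 0.85 for Pcdha1, -0.55 to 0.44 for Pcdha2, -0.76 to 0.89 for Pcdha4, -0.74 to 0.089 for Pcdhac1, -0.28 to 0.74 for Pcdhb13, -0.54 to 0.29 for Pcdhb15, -1.03 to 0.41 for Pcdhb16, -0.48 to 0.46 for Pcdhb17, -0.29 to 0.81 for Pcdhb2, -0.93 to 0.056 for Pcdhb20, -0.56 to 0.39 for Pcdhga10 and -0.11 to 0.51 for Wasf1.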
